A study of Mus musculus with 12 samples.

Results

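The 10 genes described here encode the glucocorticoid receptor (GR) and the proteins around it, taken by name from the gene count and FPKM tables, which list 54532 genes. They are the steroid receptors Nr3c1 (GR itself) and Nr3c2 (the mineralocorticoid receptor), the ligand enzymes Hsd11b1 and Hsd11b2, the cytosolic HSP90 chaperones Hsp90aa1 and Hsp90ab1, the immunophilins Fkbp4 (FKBP52) and Fkbp5 (FKBP51), the co-chaperone Ptges3 (p23) and the coactivator Ncoa2 (GRIP1). All 10 were found in both tables, and all 10 passed the filter on low counts in every comparison. The study asked how male germ cells and the somatic cells of the testis respond to dexamethasone (dex), a synthetic GR agonist. All mice, controls included, carried the Tg(Pou5f1-EGFP)2Mnn transgene, in which GFP driven by Pou5f1 (OCT4) sequences marks germ cells. Dams received 10 μg dex per g body weight, or saline, by intraperitoneal injection at E17.5 and E18.5, and the pups received the same agent under the skin at PN0. Testes were taken at PN1 and separated by FACS, the GFP-positive fraction being germ cells and the GFP-negative fraction somatic cells. With dex or saline this gave 4 groups of 3 polyA RNA-seq libraries each, called below saline germ, saline somatic, dex germ and dex somatic. Each library pooled testes of more than one litter, so its value is an average over pups, and the GFP-negative sort is a mixture of every other testis cell type.

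Unliganded GR sits in the cytoplasm in a complex with HSP90, which is loaded with the help of HSP70 and closed around the receptor with p23. FKBP51 and FKBP52 compete for the same site on HSP90, and FKBP51 lowers the receptor's hormone affinity while FKBP52 links the complex to dynein and favours its move to the nucleus. Around the receptor, 11-beta-hydroxysteroid dehydrogenase type 1 regenerates active corticosterone and type 2 inactivates it, and GRIP1 joins the DNA-bound receptor as a coactivator.

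Library totals ran from 18459692 to 25178477 counts. The 8 germ cell markers summed to between 2553 and 2809 CPM (counts scaled to a common library total) in germ libraries and between 7.96 and 9.18 CPM in somatic libraries. The 8 Sertoli markers ran the other way, at 46.9 to 85.2 CPM in germ and 5542 to 6283 CPM in somatic libraries. Among the known GR target genes checked, Klf9 rose with dex in germ cells (log2 fold change 1.08, edgeR adjusted p = 0.00140) and in somatic cells (1.27, edgeR adjusted p = 0.00404). Limma on FPKM lost the germ call at both pseudocounts (adjusted p = 0.0609 and 0.0576) and the somatic call at 0.1 (0.0505). The rises of Tsc22d3, Per1 and Zbtb16 were called in somatic cells, and Tsc22d3 fell in germ cells (-0.37, edgeR adjusted p = 0.0225, lost with limma, with the replicate block, and without dex germ replicate 1, saline germ replicate 1 or saline germ replicate 2, at 0.0735 to 0.132). Per1 and Zbtb16 were not called in germ cells under any setting. The strand setting of the authors' counting is not given in the sources used here. In bulk sorted samples, fewer cells of a type and less RNA per cell cannot be told apart.

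Per annotated gene length, the 10 genes differed widely in level in every group. FPKM are fragments scaled to the library total and to the annotated length of each gene, whichever isoforms were present. In saline germ cells mean FPKM was highest for Hsp90ab1 at 849 ± 4.12 (SD, n = 3), then Hsp90aa1 at 614 ± 13.2, Fkbp4 at 204 ± 12.4 and Ptges3 at 112 ± 4.60. Next came Fkbp5 at 18.99 ± 2.38, Nr3c1 at 13.1 ± 0.566 and Ncoa2 at 9.44 ± 0.635. The last 3 places were held by Hsd11b2 at 1.30 ± 0.447, Nr3c2 at 0.309 ± 0.0329 and Hsd11b1 at 0.110 ± 0.0673 FPKM. No neighbours in this order overlapped between libraries. Saline somatic cells kept Hsp90ab1, Hsp90aa1, Fkbp4, Ptges3 and Fkbp5 at the head, but there Hsd11b2 (19.6 ± 2.82 FPKM) stood next, above Ncoa2 (9.22 ± 1.42) and Nr3c1 (4.61 ± 0.883), and Nr3c2 and Hsd11b1 overlapped at the foot. In dex somatic cells Hsd11b2 (30.3 ± 2.55 FPKM) and Fkbp5 (30.3 ± 1.76) overlapped, next below Ptges3. In dex germ cells the order was that of saline germ cells, again with no overlap between neighbours.

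**Figure D1:**
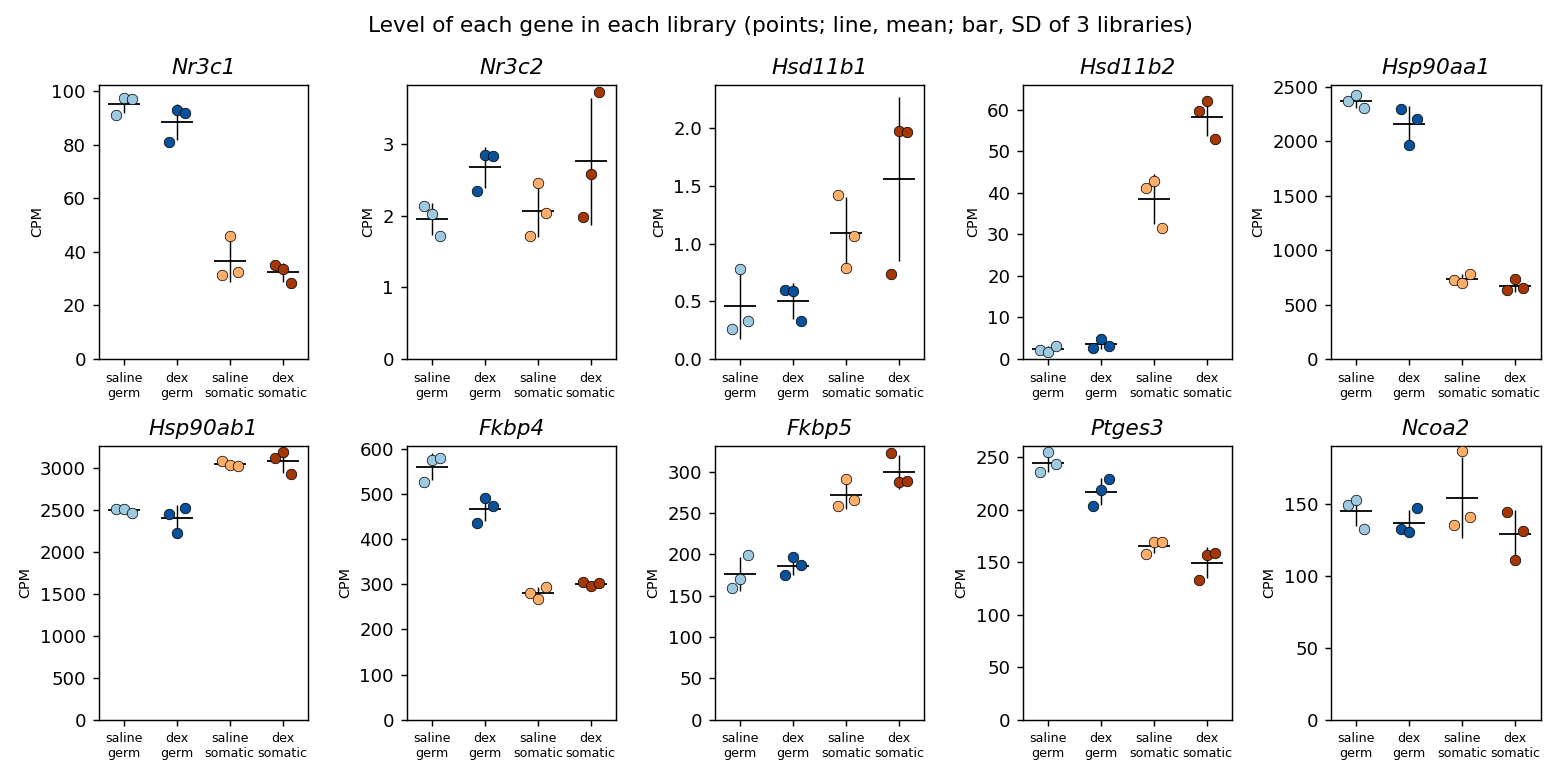
Each panel plots 1 gene, with CPM from 0 on the y axis and the 4 groups on the x axis; points are libraries, lines are means and bars are the SD of 3 libraries. Nr3c1, Hsp90aa1, Fkbp4 and Ptges3 sit higher in all 6 germ libraries, Hsd11b2, Hsp90ab1 and Fkbp5 sit higher in all 6 somatic libraries, and Hsd11b2 sits higher in the 3 dex somatic libraries than in the 3 saline ones.

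Germ cells held more GR transcript than somatic cells, more Hsp90aa1, Fkbp4 and Ptges3, and less Hsd11b2, Fkbp5 and Hsp90ab1. Of the 10 genes, 4 were called higher and 3 lower in saline germ cells than in saline somatic cells at an adjusted p of at most 0.05 in edgeR's quasi-likelihood test. Over all 18870 genes tested, 39.8% were called higher and 36.7% lower, so most genes separate these populations and the members' count lies near that background. Among dex libraries 4 of the 10 were called higher and 4 lower, against 40.5% and 35.7% of 18778 genes. The groups did not overlap for 8 of the 10 genes in saline libraries (79.7% of all genes tested) and for the same 8 in dex libraries (79.9%).

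The receptor Nr3c1 was measured at 91.1, 97.6 and 97.0 CPM in the 3 saline germ libraries and at 31.4, 46.0 and 32.7 CPM in the 3 saline somatic libraries. The 3 dex germ libraries gave 80.9, 92.8 and 91.8 CPM and the 3 dex somatic libraries 35.2, 33.5 and 28.5 CPM. Every germ library therefore held more Nr3c1 than any somatic library, with saline somatic replicate 2 the highest of the somatic samples. The log2 fold change of germ over somatic cells was 1.37 ± 0.14 (SE, edgeR adjusted p = 1.63e-06) in saline and 1.45 ± 0.11 (edgeR adjusted p = 1.29e-07) in dex libraries, which is 2.59-fold and 2.73-fold.

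The mineralocorticoid receptor Nr3c2, which also binds corticosterone, was scarce in both populations. Its level was 2.15, 2.03 and 1.71 CPM in saline germ libraries and 1.73, 2.46 and 2.04 CPM in saline somatic libraries. Those groups overlapped, and the log2 difference of -0.08 had a 95% interval from -0.88 to 0.71 (edgeR adjusted p = 0.844). Its sign turned under other scalings and tests, in saline and in dex libraries alike, so no direction is given for it. Per length, Nr3c1 exceeded Nr3c2 by between 28.2 and 49.3 times in the 6 germ libraries and by between 6.66 and 16.3 times in the 6 somatic ones. Within germ cells it was 30.0, 28.4 and 28.2 in dex and 37.0, 41.9 and 49.3 in saline libraries, which did not overlap. The ratio was 2.76 times as large in germ cells as in somatic cells (exact permutation test over libraries within treatment, two-sided, p = 0.005, which is the smallest p this design allows; 0.005 after Benjamini-Hochberg adjustment over the 3 ratios tested).

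Hsd11b2, the enzyme that inactivates corticosterone, showed the largest contrast between the populations among the 10 genes. The saline germ libraries held 2.10, 1.72 and 3.24 CPM and the saline somatic libraries 41.1, 42.9 and 31.5 CPM. No germ library came near a somatic one: the log2 fold change was -4.03 ± 0.23 in saline (edgeR adjusted p = 1.03e-08) and -4.02 ± 0.21 in dex libraries (edgeR adjusted p = 3.09e-09). The germ level was 6.11% of the somatic level in saline and 6.10% in dex. Summed markers of other cell types in germ libraries stood at 1.30% (Sertoli), 6.19% (fetal Leydig), 1.39% (peritubular and stromal), 20.7% (endothelial), 9.89% (macrophage) and 2.76% (erythroid) of their somatic level in saline, and their part in the low germ cell value was not tested. Of the 5 endothelial markers, 1 was called higher in germ than in somatic cells and 4 lower, so that sum holds a gene higher in germ cells.

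Hsd11b1, which regenerates corticosterone, was near the limit of detection, with 6 to 39 counts per library. Levels were 0.263, 0.781 and 0.333 CPM in saline germ, 1.42, 0.791 and 1.07 in saline somatic, 0.599, 0.592 and 0.326 in dex germ and 0.736, 1.98 and 1.97 CPM in dex somatic libraries. All 3 germ libraries lay below all 3 somatic ones within each treatment. The saline difference did not pass the test (log2 -1.26 ± 0.58, 95% interval -2.53 to 0.02, edgeR adjusted p = 0.0673), except without saline germ replicate 2 (-1.84, edgeR adjusted p = 0.0361), and the dex difference did (-1.62 ± 0.59, edgeR adjusted p = 0.0244). That call was lost with DESeq2 (adjusted p = 0.0590), with the replicate block (edgeR adjusted p = 0.117) and when any one dex library other than dex somatic replicate 1 was left out, with edgeR adjusted p from 0.0587 to 0.1. The annotated span of Hsd11b1 (mm10 chr1:193221634-193264075, minus strand), introns included, is overlapped on the opposite strand by Lamb3. Lamb3 counts came to 229% of those of Hsd11b1. Of the 4174 distinct stretches of 64 bases in Hsd11b1 transcripts, 0 occur in transcripts of another gene on either strand. Whether Lamb3 reads entered the Hsd11b1 counts was not tested. Because Hsd11b1 counts fell under 10 in some libraries, the ratio of Hsd11b1 to Hsd11b2 per length is given as values only, from 0.0446 to 0.197 in germ and from 0.00535 to 0.0161 in somatic libraries.

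The HSP90 paralogues divided between the populations. Hsp90aa1, the stress-inducible form, was measured at 2371, 2428 and 2311 CPM in saline germ and 731, 698 and 784 CPM in saline somatic libraries. Germ cells were thus 3.21-fold higher, with a log2 fold change of 1.68 ± 0.08 in saline (edgeR adjusted p = 1.96e-09) and 1.68 ± 0.10 in dex libraries (edgeR adjusted p = 7.43e-09). Of the 64-base words in Hsp90aa1 transcripts, 44.7% also occur in the pseudogenes Gm5844 and Gm12346. These drew 1.19% as many counts, and adding them left the saline log2 fold change at 1.68. The study's methods do not say how reads matching several genes were counted. Reads left out of all these genes cannot be seen this way, which also limits the level of Hsp90aa1 per length.

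Hsp90ab1, the constitutive form, ran slightly the other way, at 2513, 2515 and 2470 CPM in saline germ and 3091, 3034 and 3030 CPM in saline somatic libraries. The difference was small, with a log2 fold change of -0.29 ± 0.07 (edgeR adjusted p = 0.00304) in saline and -0.36 ± 0.09 (edgeR adjusted p = 0.00216) in dex libraries. It depended on the scaling: in saline it missed the threshold with library totals in place of TMM (edgeR adjusted p = 0.0546), and with limma on FPKM it missed it in both treatments (adjusted p from 0.128 to 0.187). Per length, Hsp90aa1 reached between 0.666 and 0.737 of Hsp90ab1 in the 6 germ libraries and between 0.155 and 0.197 of it in the 6 somatic ones. This ratio, which does not depend on the scaling of a library, was 4.02 times as large in germ cells (exact permutation p = 0.005, adjusted 0.005).

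The immunophilins also divided, with FKBP52 transcript higher in germ cells and FKBP51 transcript higher in somatic cells. The promoter of each is shown because Fkbp5 is a textbook GR target and the pair differ in population. The windows are the 250 bases before the RefSeq start in GRCm38.p6, both on the minus strand, at chr6:128438657-128438906 for Fkbp4 and chr17:28486150-28486399 for Fkbp5. Each is written 5′ to 3′, and capitals mark the one match found to the heat shock element unit GAANNTTC.
Fkbp4: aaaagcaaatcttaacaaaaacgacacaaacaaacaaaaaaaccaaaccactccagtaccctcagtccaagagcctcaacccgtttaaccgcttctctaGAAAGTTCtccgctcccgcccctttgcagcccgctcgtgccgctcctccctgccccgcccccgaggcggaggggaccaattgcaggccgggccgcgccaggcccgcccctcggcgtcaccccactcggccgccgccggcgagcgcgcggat
Fkbp5: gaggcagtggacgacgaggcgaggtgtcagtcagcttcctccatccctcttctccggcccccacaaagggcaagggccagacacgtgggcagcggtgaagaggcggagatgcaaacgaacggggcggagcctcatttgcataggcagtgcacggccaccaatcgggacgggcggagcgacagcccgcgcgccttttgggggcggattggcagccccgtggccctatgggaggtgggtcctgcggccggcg
Promoter windows of 5 of the 10 genes were in the RefSeq table used. Neither window shown holds the glucocorticoid response half-site AGAACA on either strand, which 16.1% of all 32851 promoter windows of this length hold, and the match in Fkbp4 starts 151 bases before the RefSeq start. GAANNTTC, which reads the same on both strands, occurs in 6.69% of windows, and TTCNNGAA, absent from both sequences, in 7.17%. A match is a string of letters and not a measured site, and the enhancers known to lie in the introns of Fkbp5 are outside this window.

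Fkbp4 was measured at 525, 576 and 580 CPM in saline germ and 281, 268 and 295 CPM in saline somatic libraries. The germ level was 1.99-fold higher, a log2 fold change of 0.99 ± 0.08 (edgeR adjusted p = 1.85e-07). In dex libraries the difference was 0.63 ± 0.08 (edgeR adjusted p = 8.10e-06). Fkbp5 was measured at 159, 171 and 199 CPM in saline germ and 258, 291 and 266 CPM in saline somatic libraries. Every germ library lay below every somatic library, with log2 fold changes of -0.63 ± 0.09 (edgeR adjusted p = 5.90e-05) in saline and -0.69 ± 0.08 (edgeR adjusted p = 6.74e-06) in dex libraries. Per length, Fkbp4 exceeded Fkbp5 by between 8.46 and 11.4 times in germ and between 3.12 and 3.75 times in somatic libraries, a ratio 2.77 times as large in germ cells (exact permutation p = 0.005, adjusted 0.005).

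**Figure D2:**
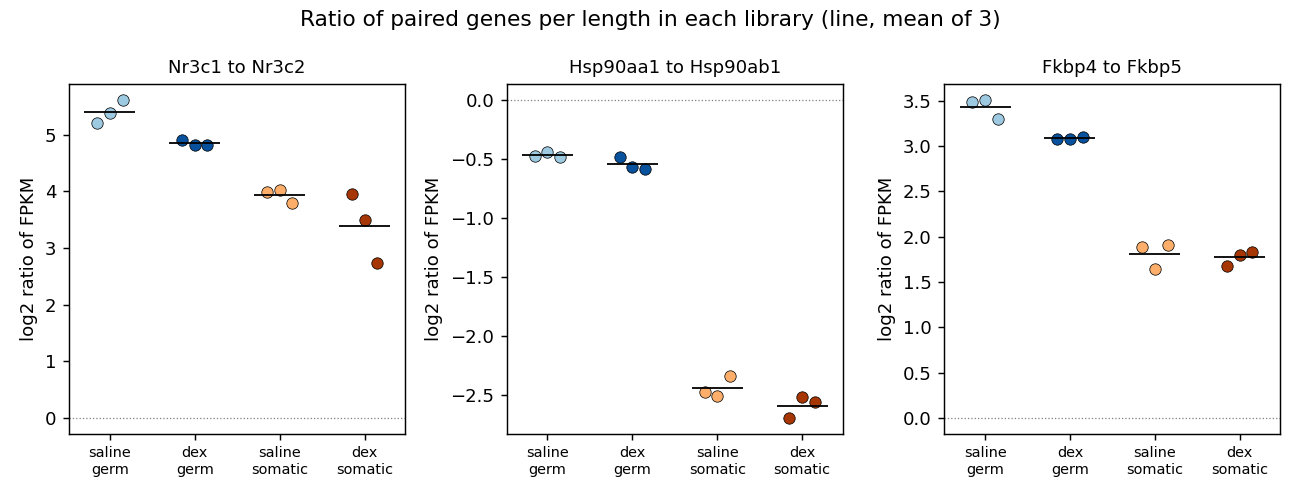
The y axes give the log2 ratio of FPKM of 3 pairs of genes in each of the 12 libraries, by group, with lines at the mean of 3 libraries; each panel has its own y range and the dotted line marks equal FPKM. All 6 germ libraries lie above all 6 somatic libraries for each pair, and for Nr3c1 to Nr3c2 and Fkbp4 to Fkbp5 the 3 dex germ libraries lie below the 3 saline germ libraries.

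Ptges3 (p23), which stabilises the closed HSP90 complex, was measured at 236, 255 and 243 CPM in saline germ and 158, 169 and 169 CPM in saline somatic libraries. All germ libraries were higher, by 0.56 ± 0.07 on the log2 scale in saline (edgeR adjusted p = 1.99e-05) and 0.54 ± 0.09 in dex libraries (edgeR adjusted p = 0.000144). Ptges3 shares 19.0% of its 64-base words with Ptges3-ps and Gm11893, which drew 21.9% as many counts, and with those counts added the saline difference was 0.65. Here too, reads left out of all these genes cannot be seen.

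The coactivator Ncoa2 was measured at 150, 153 and 133 CPM in saline germ and 135, 187 and 141 CPM in saline somatic libraries. These groups overlapped, and the log2 difference of -0.09 had a 95% interval from -0.35 to 0.16 (edgeR adjusted p = 0.485). In dex libraries it was 0.08, from -0.13 to 0.30 (edgeR adjusted p = 0.464), and with library totals it was 0.26 and called (edgeR adjusted p = 0.0307), so its direction is not given.

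**Figure D3:**
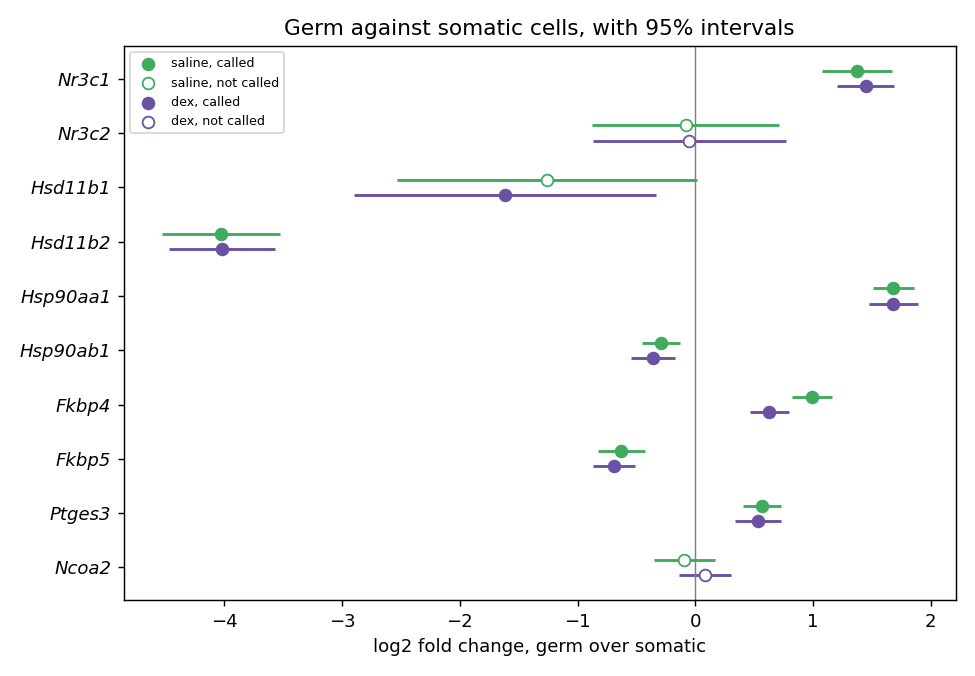
The x axis gives the log2 fold change of germ over somatic cells for each gene, with 95% intervals, in saline (green) and in dex (purple) libraries; filled points passed an adjusted p of 0.05 in edgeR. Nr3c1, Hsp90aa1, Fkbp4 and Ptges3 lie to the right of 0, Hsd11b2, Fkbp5 and Hsp90ab1 to the left, and Hsd11b1 was called in dex libraries only.

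Whether the receptor machinery itself changed under its ligand was asked within each population. In germ cells no member was called, against 1.25% of 18550 genes, in edgeR; 2 of the 10 (Fkbp4 and Ptges3) had an unadjusted p under 0.05, against 14.7% of all genes, and DESeq2 called 1 of them (Fkbp4). The dex and saline germ libraries did not overlap for 4 of the 10 genes, Fkbp4, Hsp90aa1 and Ptges3 lower and Nr3c2 higher, against 20.0% of all genes tested.

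Fkbp4 held 437, 492 and 473 CPM in dex germ libraries, below all 3 saline germ libraries (525, 576 and 580 CPM). The log2 fold change was -0.27 ± 0.07 with a 95% interval from -0.42 to -0.12, or 0.830-fold (edgeR unadjusted p = 0.00152, adjusted p = 0.0740). The call turned on the method, with adjusted p = 0.0226 in DESeq2, 0.0154 in edgeR with no filter on low counts and 0.0471 in edgeR without dex germ replicate 2. Per length, the ratio of Fkbp4 to Fkbp5 was 8.46, 8.48 and 8.58 in dex germ libraries and 11.2, 11.4 and 9.85 in saline germ libraries. The groups did not overlap, and no test is given since the smallest exact two-sided p of 3 libraries against 3 is 0.1.

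Ptges3 held 204, 219 and 229 CPM in dex germ libraries, all below the saline ones, with a log2 difference of -0.18 ± 0.07 (edgeR adjusted p = 0.239). Hsp90aa1 held 2301, 1969 and 2206 CPM, likewise all below saline, with a log2 difference of -0.14 ± 0.07 (edgeR adjusted p = 0.348). Nr3c2 held 2.35, 2.85 and 2.84 CPM, all above saline, with a log2 difference of 0.44 ± 0.29 (edgeR adjusted p = 0.524). None of these 3 passed the test.

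For the receptor itself, the dex and saline germ libraries overlapped, and the log2 difference of Nr3c1 was -0.11 with a 95% interval from -0.29 to 0.07 (edgeR adjusted p = 0.586). Fkbp5, a gene that GR induces in many tissues, held 175, 197 and 187 CPM in dex germ libraries, inside the range of the saline ones. Its log2 difference was 0.07, from -0.11 to 0.25 (edgeR adjusted p = 0.763). The intervals of Hsp90ab1 (-0.20 to 0.07) and Ncoa2 (-0.26 to 0.08) were as narrow. Those of Hsd11b2 (-0.09 to 1.28) and Hsd11b1 (-1.16 to 1.47) were wide at their low counts, 33 to 133 per germ library for Hsd11b2. Changes of any size inside these wide intervals are not excluded. Hsd11b2 held 2.67, 4.92 and 3.07 CPM in dex germ libraries, overlapping the saline ones (2.10, 1.72 and 3.24 CPM), and was not called.

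In somatic cells Hsd11b2 rose under dex and was the only member called, 1 of 10 against 2.74% of 16766 genes called higher and 1.17% called lower in edgeR. The dex somatic libraries held 59.6, 62.1 and 53.0 CPM against 41.1, 42.9 and 31.5 CPM in saline. Every dex library lay above every saline library, and the log2 fold change was 0.63 ± 0.12 with a 95% interval from 0.37 to 0.89, or 1.54-fold (edgeR adjusted p = 0.00828). Leaving out each library in turn gave log2 values from 0.52 to 0.69 and edgeR adjusted p from 0.0102 to 0.0498, and limma on log2(FPKM + 0.1) gave an adjusted p of 0.0505. The somatic mixture also differed between treatments: the 7 peritubular and stromal markers summed to between 12420 and 14770 CPM in dex and between 7871 and 10590 CPM in saline libraries (4 of 7 called higher, none lower), and the 5 macrophage markers to between 16.5 and 23.3 CPM in dex and between 39.1 and 66.0 CPM in saline libraries (2 of 5 called lower). The 8 Sertoli markers overlapped, at 5542 to 6283 CPM in dex and 5748 to 6049 CPM in saline, with 0 of 8 called. The fetal Leydig sums (86.4 to 177 CPM in dex, 121 to 205 CPM in saline) and erythroid sums (85.0 to 299 CPM in dex, 256 to 394 CPM in saline) overlapped, with 1 and 2 markers called lower. The part of any of these markers' cells in the Hsd11b2 result was not tested.

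No other member was called in somatic cells, and besides Hsd11b2 the dex and saline groups did not overlap for Fkbp4 alone, 2 of 10 in all against 21.3% of all genes tested. Fkbp5 held 323, 287 and 288 CPM in dex somatic libraries, and its lowest lay below the highest saline library (291 CPM). Its log2 difference was 0.17 ± 0.08 with an unadjusted p of 0.0433 and an adjusted p of 0.290 in edgeR. Fkbp4 held 306, 296 and 303 CPM in dex somatic libraries, all just above saline, with a log2 difference of 0.13 ± 0.08 (edgeR adjusted p = 0.479). Nr3c1 overlapped between treatments, with a log2 difference of -0.15 and a 95% interval from -0.44 to 0.15 (edgeR adjusted p = 0.681). The other 6 members gave log2 differences from -0.23 (Ncoa2) to 0.54 (Hsd11b1), and their edgeR adjusted p ranged from 0.330 to 0.858.

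**Figure D4:**
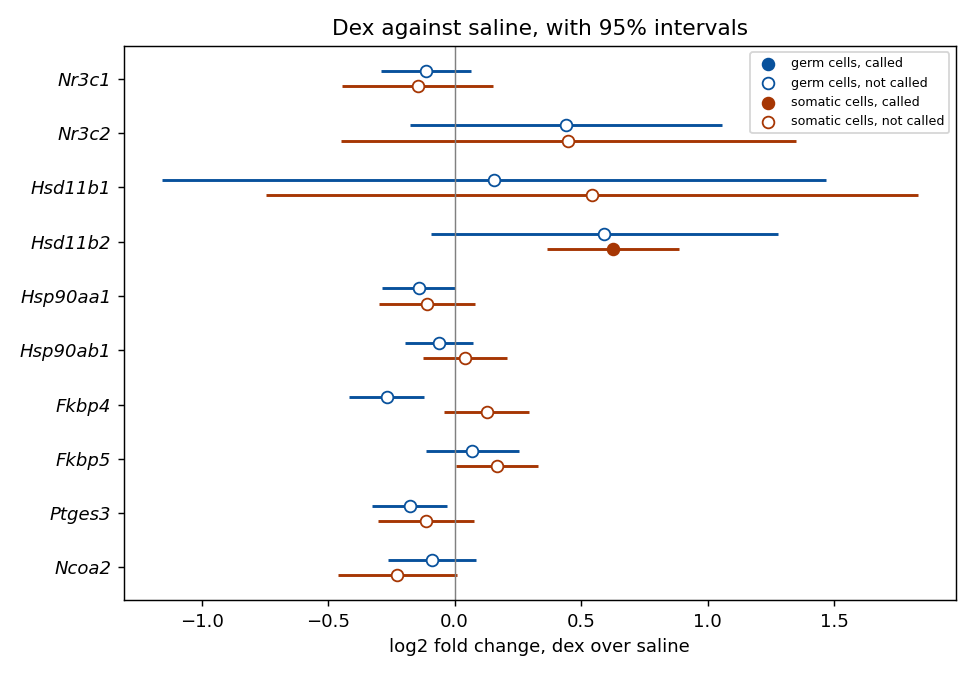
The x axis gives each gene's log2 fold change, dex over saline, with 95% intervals, in germ cells (blue) and somatic cells (brown); the filled point passed an adjusted p of 0.05 in edgeR. Only Hsd11b2 in somatic cells is filled, and the 2 Fkbp4 estimates lie on opposite sides of 0.

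Tested directly, the effect of dex differed between germ and somatic cells for no member in edgeR, against 0.827% of 20551 genes. Fkbp4 came nearest, and it alone had an unadjusted p under 0.05 (1 of 10, against 13.3% of all genes): its log2 effect was 0.36 ± 0.10 lower in germ cells, a difference of -0.36 (95% interval -0.58 to -0.15, edgeR unadjusted p = 0.00263, adjusted p = 0.117), and DESeq2 called it (adjusted p = 0.0307). For Hsd11b2 the difference of 0.01 had an interval from -0.59 to 0.61, so a difference of up to about that size in either direction is not excluded. The remaining 8 members had edgeR adjusted p of at least 0.726.

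The wider pathway was followed in 63 further genes, grouped by role. In saline libraries 56 of the 63 passed the filter, of which 26 were called higher and 23 lower in germ than in somatic cells, near the background of 39.8% higher and 36.7% lower over all genes. Their median log2 difference was -0.01, beside 0.07 over all genes tested. The estrogen receptor Esr1, a related steroid receptor, was lower in germ cells, the opposite direction to Nr3c1. It averaged 1.43 ± 0.252 CPM in saline germ and 37.2 ± 2.95 CPM in saline somatic libraries (log2 -4.70, edgeR adjusted p = 4.42e-10).

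The role groups are read against the same background of 39.8% and 36.7%, and none was tested as a group. Of 4 related receptors, 0 were called higher and 4 lower (median -3.83). Among chaperones, 3 of 9 genes of HSP70 and its partners were called higher and 4 lower (median -0.27), and 6 of 12 HSP90 co-chaperones higher and 2 lower (median 0.15). Hspa4, an HSP70-family nucleotide exchange factor, averaged 606 ± 15.1 CPM in germ and 220 ± 14.4 CPM in somatic cells (log2 1.46, edgeR adjusted p = 5.70e-09). Of the 6 genes for receptor transport 5 were higher and 1 lower (median 0.59). Of 12 coactivators 7 were higher and 4 lower (median 0.71), led by the p160 coactivator Ncoa3 (SRC-3), at 237 ± 23.3 against 54.8 ± 4.17 CPM (log2 2.11, edgeR adjusted p = 1.64e-09), and the Mediator subunit Med14, at 187 ± 17.9 against 53.1 ± 1.39 CPM (log2 1.81, edgeR adjusted p = 2.81e-09). Of 7 corepressors 3 were higher and 4 lower (median -0.41).

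Of 13 genes for ligand supply and breakdown, 6 passed the filter, 2 called higher and 4 lower (median -1.95). The steroidogenic enzyme Hsd3b1, also a fetal Leydig marker, averaged 1.18 ± 0.123 CPM in germ and 45.5 ± 12.4 CPM in somatic cells (log2 -5.25, edgeR adjusted p = 2.19e-09). The steroid-exporting transporter Abcb1b, named after its values were seen, had 59 to 78 counts in each saline germ library and none in any saline somatic library. Against a floor of 3 counts per library it was at least 21.6-fold higher in germ cells. Its paralogue Abcb1a, also named after its values were seen, ran the other way, with 2 to 7 counts in saline germ and 32 to 39 in saline somatic libraries (edgeR adjusted p = 0.000493). In dex libraries that difference did not pass (edgeR adjusted p = 0.0758). In dex libraries 57 genes were tested, with 23 called higher and 25 lower in germ cells, against 40.5% and 35.7% of all genes, and a median of -0.11 beside 0.12. There the HSP70 group had 2 higher and 4 lower (median -0.11), HSP90 co-chaperones 4 and 3 (0.0034), transport 5 and 1 (0.83), coactivators 7 and 5 (0.80), corepressors 3 and 4 (-0.48) and ligand genes 2 and 4 (-1.34). The related receptors had 0 higher and 4 lower (-3.46).

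Under dex, edgeR called none of 54 pathway genes in germ cells, against 1.25% of all genes. At an unadjusted p under 0.05 there were 11 of 54, against 14.7% of all genes, and DESeq2 called 2. In somatic cells it called 4 of 56, 1 higher and 3 lower, against 2.74% and 1.17% of all genes, with a median of 0.02 beside -0.01 over all genes. H6pd, which supplies the NADPH that drives the reductive direction of the type 1 dehydrogenase, rose from 46.6, 61.3 and 48.3 CPM in saline to 82.9, 78.6 and 67.4 CPM in dex somatic libraries (log2 0.58 ± 0.11, edgeR adjusted p = 0.00769). Without saline somatic replicate 1 or 3 its edgeR adjusted p was 0.0509. Esr1 fell from 39.9, 37.6 and 34.1 to 25.6, 23.3 and 18.8 CPM (log2 -0.69 ± 0.13, edgeR adjusted p = 0.00745, and 0.0502 without saline somatic replicate 1).

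Esr2, the second estrogen receptor, fell from 12.4, 14.5 and 13.6 to 8.66, 6.90 and 7.46 CPM (log2 -0.79 ± 0.18, edgeR adjusted p = 0.0235). The exportin Xpo1 fell from 296, 304 and 293 to 228, 243 and 245 CPM (log2 -0.29 ± 0.08, edgeR adjusted p = 0.0406). For each of these 4 genes no dex somatic library overlapped a saline one. Both of the last calls were lost when most single libraries were left out, with edgeR adjusted p up to 0.0905 for Esr2 (lost in all but the fit without dex somatic replicate 1) and 0.152 for Xpo1 (lost in all but the fit without saline somatic replicate 2). Limma on FPKM called none of the 4. The somatic mixture differed between treatments, as given above for Hsd11b2, and its part in the results of these 4 genes was not tested. The annotated span of Esr2, introns included, overlaps the pseudogene Gm7862, which drew 13.0% as many counts. Of the 3424 distinct 64-base words in Esr2 transcripts, 0 occur in another gene. The difference of dex effects between populations was called for none of 57 pathway genes in edgeR, against 0.827% of all genes, and 10 had an unadjusted p under 0.05, against 13.3%.

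**Figure D5:**
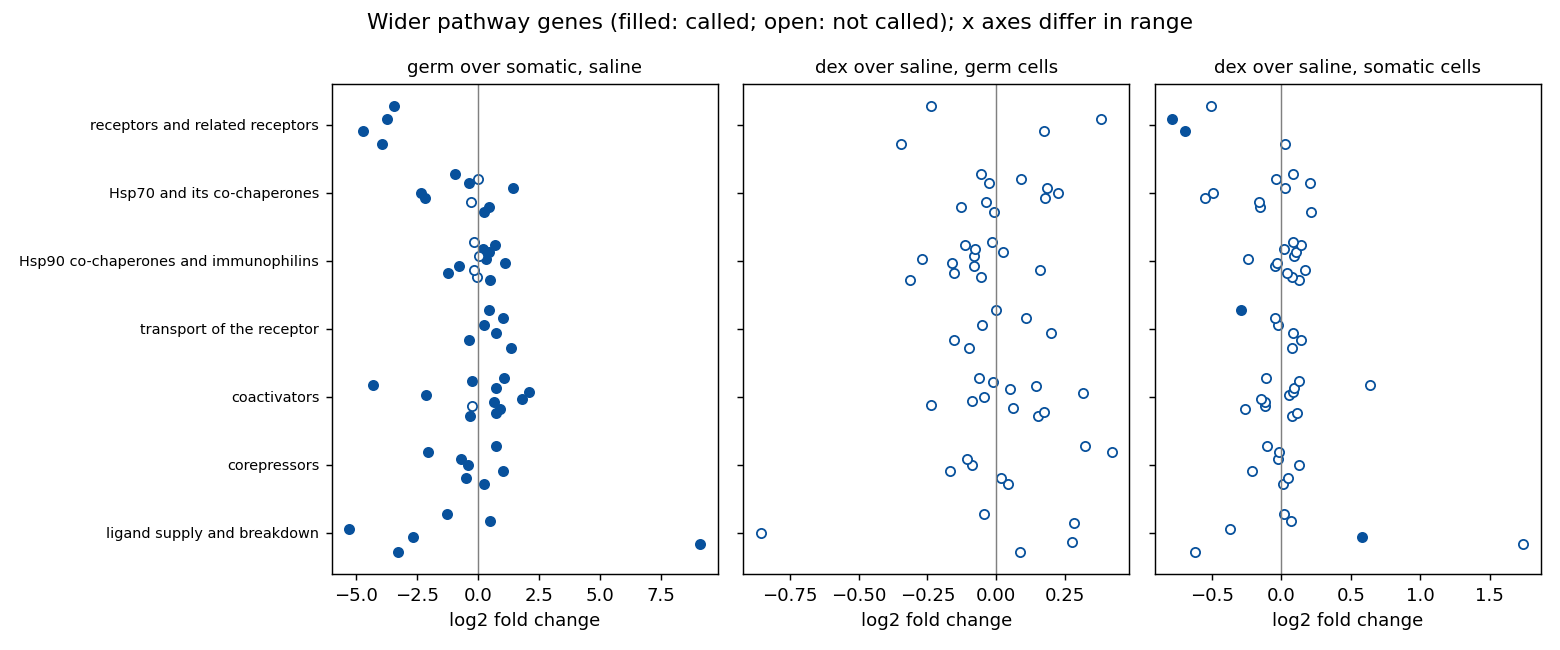
Each point is 1 gene of the wider pathway, placed by role on the y axis and by log2 fold change on the x axis, for germ over somatic cells in saline (left), dex over saline in germ cells (middle) and dex over saline in somatic cells (right). Filled points passed an adjusted p of 0.05 in edgeR, 49 of 56, 0 of 54 and 4 of 56, and the x ranges differ between panels; the point farthest right in the left panel is Abcb1b, with no count in saline somatic libraries.

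Among 11975 genes averaging 2 or more in log2 CPM, those whose log2 CPM followed Nr3c1 most closely over the 12 libraries were Ntn1 (Pearson r = 0.997), Ambra1 (0.995), Coil (0.994), Dmrt3 (0.994) and Esrp1 (0.993). All 5 were higher in germ cells, and the r within the 6 germ libraries alone was lower, from 0.571 to 0.801, while within the 6 somatic libraries it ran from 0.898 to 0.997. The points share library, depth and sorting, and no p is given.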

How the data were processed

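PolyA RNA-seq libraries of FACS-sorted germ and somatic cells from PN1 testes were grouped by the treatment and sort in the labels. Per the labels and the submitters' processing notes, the authors used HISAT2 2.0.5, featureCounts 1.5.0-p3 and DESeq2 1.20.0 with build mm10; the deposited counts are raw reads per gene, and the deposited FPKM values were made by the authors from such counts, gene length and library total. The deposited comparison tables hold the authors' DESeq2 fold changes and p-values and were not used. Counts were tested in R 4.3.3 with edgeR 4.0.16 (TMM, filterByExpr at a minimum count of 10, quasi-likelihood test, two-sided), with Benjamini-Hochberg adjustment over all genes tested and calls at an adjusted p of at most 0.05. Germ and somatic cells were compared within each treatment, dex and saline within each population, and the difference of dex effects over all 4 groups. Per-library CPM was scaled to the library total multiplied by its TMM factor, and standard errors are those of the fits. Ratios of FPKM were compared by an exact permutation test over 400 rearrangements within treatment.

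Alternatives were DESeq2 1.42.0, library totals, no low-count filter, at least 10 counts in every library, limma 3.58.1 on log2(FPKM + 0.1) and log2(FPKM + 1), a replicate block, leaving out each library, and, chosen after seeing the data, adding counts of genes that share sequence. The fits were tested on simulated data. Which litters entered which replicate is not given in the sources used here. Replicate numbers were not treated as pairs, since deviations of same-numbered libraries from their group means did not correlate above 0.1 in every pair. The values were 0.0845, 0.149 and 0.117 for saline germ and somatic cells, and 0.0060, -0.028 and -0.0051 for dex. If germ and somatic libraries were sorted from the same testes, the tests between populations, permutation included, took paired libraries as independent. Only the replicate block allowed for pairing. No pair of libraries agreed within sampling noise, so none was a copy. Sequences are RefSeq's in GRCm38.p6. The text names all 10 members, pathway genes called under dex, the 3 pathway genes with the largest difference in each direction between populations (average log2 CPM of at least 2; 1 of these is not reported here), 4 GR targets and the 5 genes most like Nr3c1. The members and lists were chosen with earlier results of these data known. P-values measure the spread between pooled libraries.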

Additional observations from a re-analysis of the deposited data

Results flagged for a closer look

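For Fkbp4, all 3 dex germ libraries lay below and all 3 dex somatic libraries above their saline counterparts, though neither difference was called (edgeR adjusted p = 0.0740 in germ and 0.479 in somatic cells), and the difference of effects was -0.36 on the log2 scale (edgeR adjusted p = 0.117, not called). Of the GR targets used to check the treatment, the difference of dex effects, germ minus somatic, was called for Tsc22d3 at -1.37 (edgeR adjusted p = 3.20e-05), Per1 at -0.60 (edgeR adjusted p = 0.0282) and Zbtb16 at -4.11 (edgeR adjusted p = 1.47e-05). The Per1 difference lost its call when single libraries were left out in 9 of 12 fits, and with the replicate block its edgeR adjusted p was 0.0546.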

How the results depend on the processing

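Nr3c1, Hsd11b2, Hsp90aa1, Fkbp4, Fkbp5 and Ptges3 kept direction and call between germ and somatic cells under every alternative, as did the 3 ratios per length. Counts of genes called under dex moved most. In germ cells 231 genes were called, against 675 with DESeq2, 767 with no low-count filter, 6 and 12 with limma at pseudocounts of 0.1 and 1, 65 with the replicate block and 49 to 265 with one library left out. Members called there were 1 with DESeq2 and 1 with no filter (0 to 1 with a library left out), and pathway genes 2 and 2 (0 to 1). In somatic cells 655 genes became 1061 with no filter, 251 and 281 with limma, and 354 to 547 with a library left out; limma at 0.1 called 0 members, limma called 0 pathway genes at both pseudocounts, and leaving out a library gave 0 to 4. For the difference of dex effects 170 genes became 620 with DESeq2, 706 with no filter, 262 with at least 10 counts in every library, 57 with limma at 0.1, 90 with the block and 79 to 172 with a library left out; DESeq2 called 1 member, and no filter gave 1 pathway gene. The cause of these shifts was not tested.

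Library totals moved the median log2 difference of all genes from 0.07 to 0.21 in saline and from 0.12 to 0.30 in dex between populations, the share of somatic dex calls that were higher from 70.1% to 53.5%, and that of the difference of effects from 50.0% to 67.0%. Signs reversed for values that were not called. For germ over somatic cells in saline, Nr3c2 gave 0.0201 (DESeq2), 0.055 (library totals), 0.036 and 0.01 (limma at 0.1 and 1) and -0.24 to 0.057 with a library left out, and Ncoa2 gave 0.011, 0.046, 0.042 and 0.037 likewise and -0.22 to 0.065. In dex, Nr3c2 gave 0.059 (DESeq2), 0.13 (library totals), 0.022 (no filter), 0.015 (10 counts in every library), 0.075 and 0.021 (limma) and -0.25 to 0.22, and Ncoa2 -0.019 to 0.16 with a library left out. Under dex in germ cells, leaving out a library gave Fkbp5 -0.00026 to 0.17 and Hsd11b1 -0.14 to 0.76. In somatic cells Hsp90ab1 gave -0.019 with library totals, and Nr3c1 -0.23 to 0.016 with a library left out.

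For the difference of dex effects, Hsd11b2 gave -0.011 (DESeq2), -0.0067 (10 counts in every library), -0.062 and -0.24 (limma), -0.026 (replicate block) and -0.31 to 0.29 with a library left out. Hsp90aa1 gave -0.014, -0.011, -0.016, -0.016 and -0.00087 in the same order, -0.0028 with counts of sharing genes added, and -0.063 to 0.072. Ptges3 gave 0.018 with library totals and -0.13 to 0.021, and Klf9 0.011 with limma at 1 and -0.40 to 0.025. With a library left out, Fkbp5 ran from -0.15 to 0.022, Hsd11b1 from -0.71 to 0.22, Nr3c1 from -0.11 to 0.16 and Nr3c2 from -0.18 to 0.31.

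With the replicate block, members called were 7 in saline and 7 in dex between populations, 0 and 1 under dex in germ and somatic cells and 0 for the difference; the block ended the calls of Hsd11b1 in dex libraries (edgeR adjusted p = 0.117) and Xpo1 (0.0521). Between saline germ and somatic cells every library correlated best with its own number, a hint from the data only. Depth limits Hsd11b1, and Nr3c2 and Hsd11b2 in germ cells.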
